A study of Mus musculus with 17 samples.

Results

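At weaning, the 7 libraries of ribosome-bound RNA differed widely in Alyref within each maternal diet, and they were divided at an Alyref signal of 50. The libraries above 50 were chow replicate 1 (52.67), high-fat diet (HFD) replicate 2 (60.05) and HFD replicate 4 (60.35). Those below 50 were chow replicate 2 (28.21), chow replicate 3 (22.43), HFD replicate 1 (10.14) and HFD replicate 3 (36.05). The highest value under the threshold was therefore 36.05 and the lowest above it 52.67. These 7 are all the weaning libraries of the 17 in the series. Because Alyref itself, measured in the same libraries, chose the sides, the comparison between them is a description of all other genes and carries no test.

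The samples came from POMC RiboTag mice, in which ribosomes carry an HA tag in cells that express pro-opiomelanocortin (POMC), and HA antibody precipitated the tagged ribosomes with their RNA from the mediobasal hypothalamus. All dams were POMC RiboTag females given either standard chow or a diet labelled 45% HFD from 6 weeks of age, for 4 weeks before mating and on through lactation until postnatal day 21 (P21). Offspring were sampled at P0 (5 chow and 5 HFD libraries) and at P21 (3 chow and 4 HFD). The labels number the samples as biological replicates and do not say whether a library is 1 animal or a pool, or which litter it came from. Cells that express Pomc only in development would also carry the tag, depending on when the driver is active, which the labels do not give.

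Alyref is an RNA-binding adaptor of the TREX complex, which coats spliced and capped transcripts in the nucleus and hands them to the export receptor Nxf1. It has a close paralogue, Alyref2, and works beside the THO subunits, the helicase Ddx39b and the cap-binding proteins. Ribosome-bound RNA is sampled after export, in the cytoplasm, so a RiboTag library reads transcripts of any gene that reach tagged ribosomes together with whatever untagged RNA the precipitate retains.

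Many of the genes that were higher above 50 held a short coding stretch of very high GC content, and those of a few genes are shown for that reason. Each is the 100-base window with the highest GC content in the longest annotated coding sequence of the gene (GENCODE M21, GRCm38, the assembly of mm10), written 5′ to 3′ on the coding strand with G and C in capitals. Alyref lies on the minus strand at chr11:120592121-120598365, and its window covers coding bases 61 to 160 with 87% GC. Ano8 (minus strand, chr8:71476019-71485963), Dapk3 (plus strand, chr10:81183005-81193197) and Eid2 (plus strand, chr7:28267881-28269272) had the 3 largest differences in the direction of Alyref, with windows of 86%, 82% and 89% GC at coding bases 3191 to 3290, 996 to 1095 and 201 to 300. Gabrd (minus strand, chr4:155384980-155398112) and Kitl (plus strand, chr10:100015630-100100416) went the opposite way, with windows of 67% and 57% at coding bases 1130 to 1229 and 556 to 655. The genes shown were picked after their values were seen.
Alyref: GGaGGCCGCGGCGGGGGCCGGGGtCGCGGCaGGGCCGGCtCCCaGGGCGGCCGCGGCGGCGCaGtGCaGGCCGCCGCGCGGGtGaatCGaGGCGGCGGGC
Ano8: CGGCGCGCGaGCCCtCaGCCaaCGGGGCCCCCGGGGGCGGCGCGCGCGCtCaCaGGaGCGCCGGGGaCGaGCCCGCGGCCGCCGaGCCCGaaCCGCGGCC
Dapk3: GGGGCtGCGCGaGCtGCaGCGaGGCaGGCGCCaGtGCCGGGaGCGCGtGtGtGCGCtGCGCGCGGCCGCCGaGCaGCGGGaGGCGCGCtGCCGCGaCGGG
Eid2: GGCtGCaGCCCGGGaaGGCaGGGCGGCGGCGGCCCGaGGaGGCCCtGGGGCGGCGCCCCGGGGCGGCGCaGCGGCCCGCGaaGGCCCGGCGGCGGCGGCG
Gabrd: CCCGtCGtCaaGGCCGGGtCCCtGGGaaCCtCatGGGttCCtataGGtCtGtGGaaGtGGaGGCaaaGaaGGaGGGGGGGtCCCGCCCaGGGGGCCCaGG
Kitl: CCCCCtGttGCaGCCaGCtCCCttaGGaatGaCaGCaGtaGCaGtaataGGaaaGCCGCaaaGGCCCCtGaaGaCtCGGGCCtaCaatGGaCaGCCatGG

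The values are a scaled signal close to CPM, as deposited. One read was worth between 0.0275 and 0.0460 units across the 17 libraries, which corresponds to depths of about 22400000 to 37100000 reads. Depth was 31900000 to 34300000 reads in the 3 libraries above 50 and 22400000 to 37100000 reads in the 4 below, and 3 reads amount to at most 0.138 units. Genes above 1 unit numbered 13484 to 13833 above and 13421 to 13991 below, and the 100 most abundant genes took 17.1 to 17.9% and 17.4 to 19.2% of the signal. All 3 of these ranges overlap between the sides. Pomc was abundant on both sides, at 4678.97, 8268.31 and 8527.77 above 50 and 3877.52, 12069.60, 9817.70 and 7460.14 below. Markers of other cells were also present on both sides: the summed signal of 19 oligodendrocyte lineage genes was 4292 to 8715 above and 4553 to 19492 below, that of 18 astrocyte genes 2914 to 6257 and 3639 to 9230, and that of 16 microglial genes 281 to 462 and 297 to 814.

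For each gene the mean log2(value + 1) of the libraries below 50 was subtracted from that of the libraries above 50, within chow (1 library against 2) and within HFD (2 against 2), and the 2 differences were averaged. A gene was called separated when the sides did not overlap in either diet, in the same direction, and the averaged difference was at least 1. Of 14069 genes with a value above 1 in at least 3 of the 7 libraries, 157 were separated and higher above 50 (1.12% of genes) and 41 were separated and lower (0.291%). With no limit on size, 1039 genes (7.39%) lay higher without overlap in either diet and 900 (6.40%) lay lower, so the excess in the direction of Alyref was in the large differences. With so few libraries many genes would lie without overlap by the order of their values alone. These 2 counts are therefore no measure of how many genes follow Alyref. The median averaged difference was 1.22 over the 157 and -1.12 over the 41, beside -0.01 over all genes, and in 133 of the 157 and 32 of the 41 the 3 libraries did not overlap the 4 over both diets. The higher count was 248 without HFD replicate 3 and 559 without chow replicate 1, when the HFD libraries alone decide. The lower count was 142, 106, 65 and 86 without HFD replicates 1, 2, 3 and 4, 72 without chow replicate 2 and 110 without chow replicate 1.

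The separated genes were a small corner of the variation within diets. Across all 14069 genes the chow difference and the HFD difference had a Pearson correlation of 0.09 and a Spearman correlation of 0.03, given as a description because genes are not independent and all libraries were scaled together. The SD over genes was 0.49 for the chow difference and 0.48 for the HFD difference. Among the 157, the median was 1.15 in chow, with a range of 0.06 to 2.70, and 1.34 in HFD, with a range of 0.59 to 3.22.

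**Figure D1:**
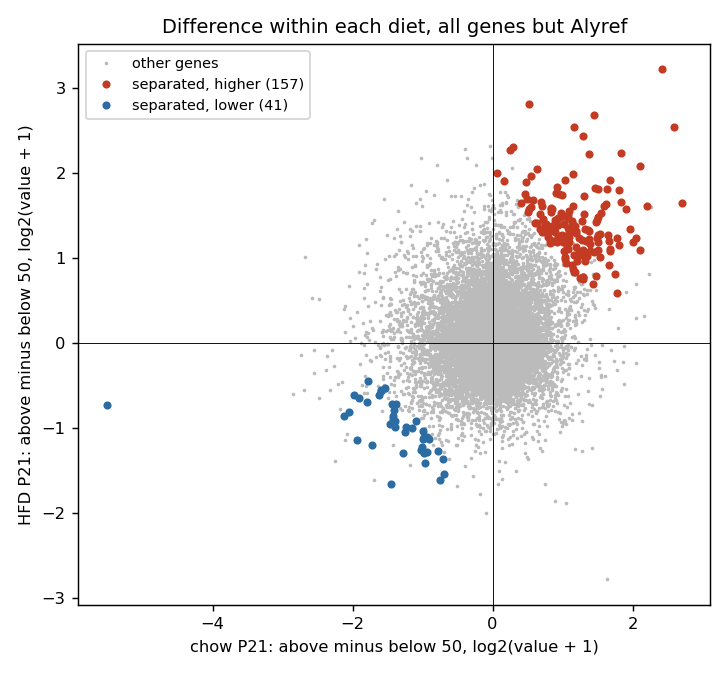
Difference between libraries with Alyref above and below 50, on the log2(value + 1) scale, within chow (horizontal axis, 1 library against 2) and within HFD (vertical axis, 2 against 2), each point a gene other than Alyref. The 157 separated higher genes (red) and 41 separated lower genes (blue) sit in opposite corners of a cloud whose correlation is 0.09.

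Ano8, an anoctamin of contact sites of the endoplasmic reticulum, differed most in the direction of Alyref. It read 37.55, 33.35 and 50.20 in chow replicate 1, HFD replicate 2 and HFD replicate 4, and 6.56, 5.79, 0.70 and 10.92 in chow replicates 2 and 3 and HFD replicates 1 and 3. No library below 50 reached any library above it, and the averaged log2 difference was 2.82, a 7.08-fold difference on the value + 1 scale. Dapk3, which encodes a kinase acting on myosin light chain, read 68.47, 76.11 and 84.27 above 50 and 14.08, 7.86, 2.17 and 60.61 below, in the same library order. Its sides did not overlap either, but HFD replicate 3, the library with the highest Alyref of those below 50, was close to the upper group, and the averaged difference was 2.56.

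Eid2, a single-exon gene whose product inhibits differentiation through histone acetyltransferases, read 79.07, 60.61 and 115.74 above 50 and 11.43, 11.17, 13.29 and 50.10 below (averaged difference 2.18). Vstm2l, which encodes an immunoglobulin-domain protein, read 169.41, 150.11 and 166.40 above and 49.56, 30.01, 18.42 and 72.11 below (2.09). In both genes HFD replicate 3 was again the highest of the lower side, and the sides did not overlap. Nptxr, the neuronal pentraxin receptor of synapses, read 16.36, 21.28 and 31.24 above and 7.33, 3.86, 0.84 and 8.48 below (2.06). Part of the exons of Nptxr, 17.2% of their bases, is shared with another annotated gene, and the sources used here do not give the strand setting of the counting, so its reads cannot all be assigned to it with certainty. The same holds for H1fx (19.5%) and Lrrc47 (29.7%).

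H1fx, a linker histone encoded by a single exon, read 32.95, 27.27 and 29.34 above 50 and 9.67, 4.09, 2.70 and 23.74 below (averaged difference 1.91). Hcn2, a channel of the hyperpolarisation-activated pacemaker current, read 38.06, 36.16 and 42.68 above and 14.82, 15.03, 2.74 and 13.77 below (1.87). Kcnk12, of the background potassium channel family, read 23.12, 32.92 and 31.74 above and 12.62, 7.44, 1.51 and 12.04 below (1.86). In all 3 genes HFD replicate 1, the library with the least Alyref of the 7, was the lowest. The other genes named by size were Lrrc47 (1.81), the Ras-induced membrane protein gene Tmem158 (a 3.48-fold difference), the bZIP factor gene Crebzf (1.75) and Mogs (1.74), which encodes the glucosidase that starts N-glycan trimming. Tmem158 read 169.79, 161.35 and 157.92 above 50 and 86.47, 48.57, 14.52 and 74.99 below. Crebzf read 35.16, 29.71 and 27.65 above and 9.04, 9.19, 8.56 and 8.21 below, so its 4 lower libraries lay within 1 unit of each other while their Alyref ran from 10.14 to 36.05.

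**Figure D2:**
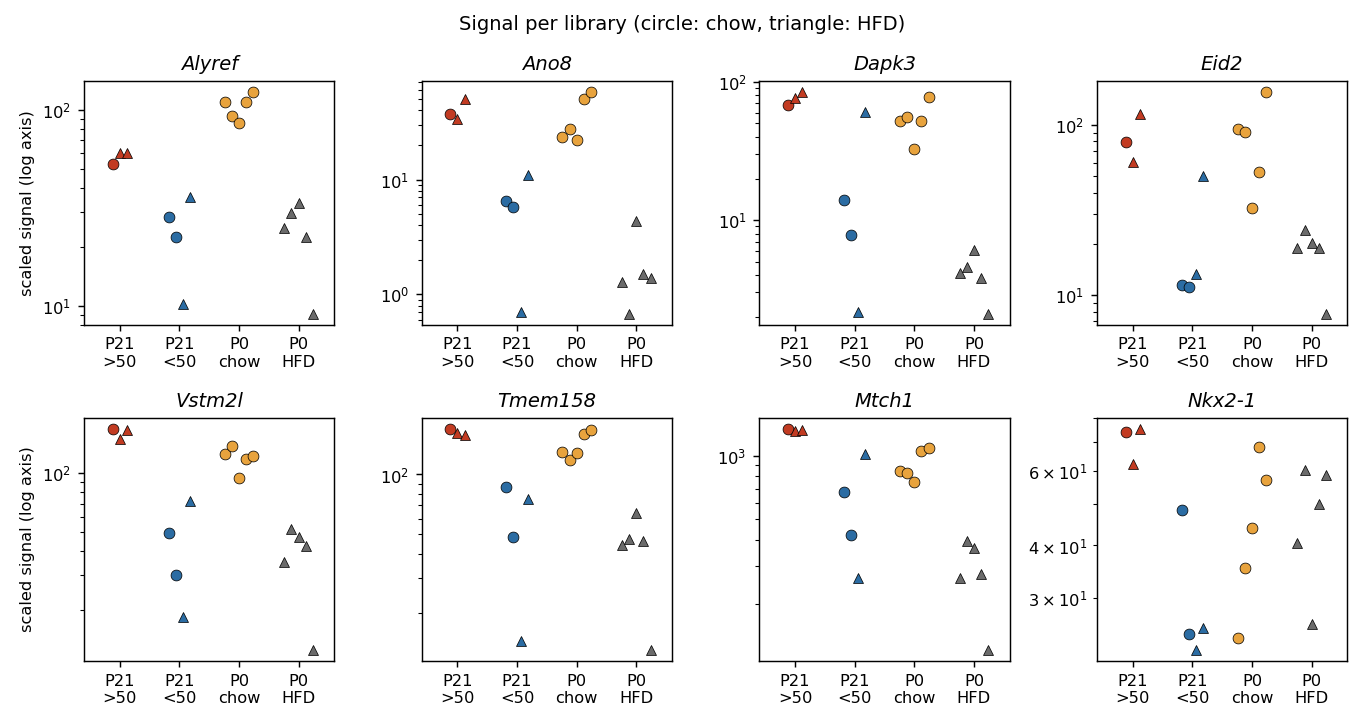
Scaled signal (log axis) of Alyref and 7 separated genes in each of the 17 libraries, grouped as P21 with Alyref above 50, P21 below 50, P0 chow and P0 HFD; each point is 1 library, circles chow and triangles HFD. Dapk3 and Mtch1 show HFD replicate 3 (60.61 and 1023.29) near the upper group, and Nkx2-1 is the one gene drawn whose P0 diets overlap.

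The genes that were lower above 50 were fewer and weakly expressed: 10 of the 41 had a mean above 5 over the 7 libraries, against 120 of the 157. Gabrd, the delta subunit of extrasynaptic GABA-A receptors, read 5.79, 0.00 and 1.1 in chow replicate 1, HFD replicate 2 and HFD replicate 4, and 13.08, 23.57, 1.72 and 6.68 below 50 (-1.56). Its sides overlap once the diets are pooled, since chow replicate 1 lies above HFD replicate 1.

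Ptpn3, a tyrosine phosphatase gene, read 2.92, 4.03 and 2.06 above 50 and 9.23, 20.86, 6.0 and 9.70 below (-1.54). Kitl, the ligand of the Kit receptor, read 7.44, 9.02 and 5.19 above and 14.02, 25.41, 9.79 and 21.61 below (-1.11). Fos, an immediate early gene, read 9.27, 67.69 and 48.30 above and 16.69, 39.02, 93.03 and 97.28 below (-1.05). Fos was lower above 50 within each diet, and its values overlapped across diets because all 4 HFD libraries exceeded all 3 chow libraries. The remaining named genes were the glutamate receptor gene Grm3 (-1.11), Tmem63a (-1.02), Cep57l1 (-1.02) and the initiator caspase gene Casp9 (-1.01).

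The separated genes had a sequence feature that the Alyref rule did not use. Median GC content of the merged exons was 56.2% for the 157 higher genes, 48.6% for the 41 lower genes and 49.4% for all genes described, and in coding sequence it was 60.4%, 53.3% and 53.3%. The contrast was wider for the highest-GC 100-base coding window, with medians of 83%, 67% and 67%. A window of at least 80% GC was found in 101 of the 156 higher genes with a coding sequence (64.7%), in 1 of the 41 lower genes and in 1216 of 13530 genes described (8.99%). Among the higher genes found without chow replicate 1 the share was 38.9%, and without HFD replicate 1 it was 43.1%. This window and its limits were chosen after several other properties had been tried on these data.

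Across all genes, whether separated or not, the difference moved with this window in both diets. Genes whose richest window was 85 to 89% GC (355 genes) had a median difference of 0.28 in chow and 0.59 in HFD, and 65 of them (18.3%) were separated and higher. Genes at 80 to 84% (802 genes) had medians of 0.04 and 0.33, and 31 (3.87%) were separated and higher. Genes under 60% (2157 genes) had medians of 0.03 and -0.22, and 5 (0.232%) were separated and higher. The 59 genes at 90% or more had medians of 0.34 and 0.28, and 5 (8.47%) were separated. Chow was flat up to 79% GC, whereas HFD climbed through every class up to 89%. In each library the genes with a window of at least 85% were compared with those under 70% after centring each gene on its mean over the 17 libraries: the difference of medians was 0.02 to 0.12 in the 3 libraries above 50 and -0.82 to -0.25 in the 4 below. At P0 the same measure was 0.07 to 0.60 in chow and -0.86 to 0.35 in HFD, with a median of 0.10 in HFD, so the diets overlapped although their Alyref did not. Only HFD replicate 5 lay below 0 at P0 (-0.86), and the other HFD libraries, with Alyref of 22.34 to 33.47, lay between 0.09 and 0.35.

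**Figure D3:**
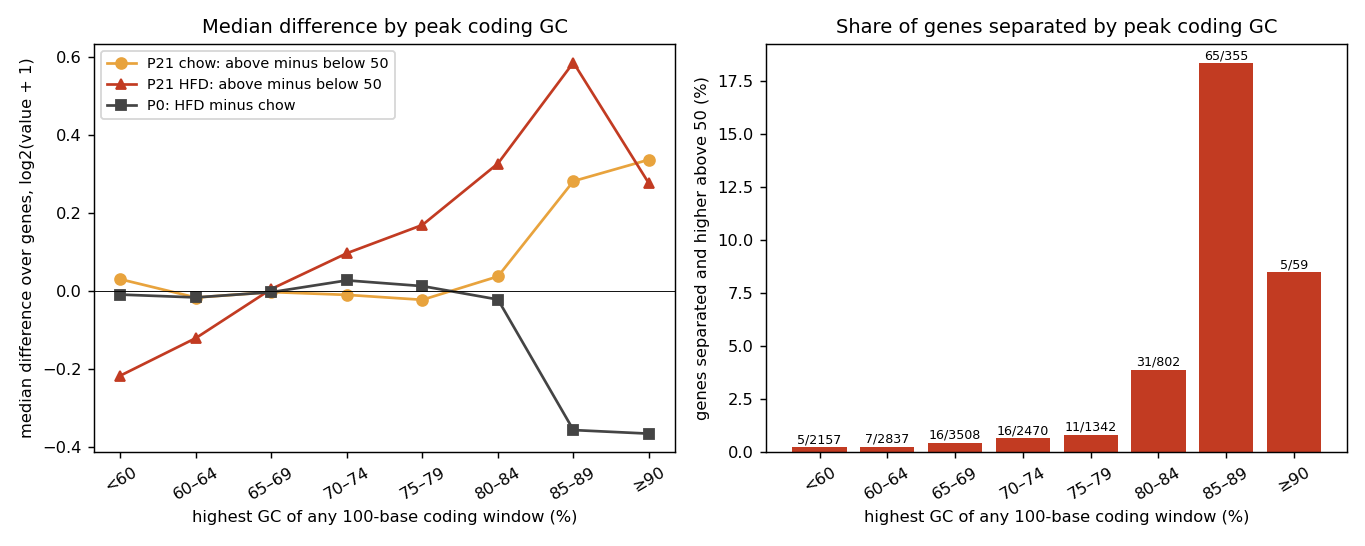
Genes grouped by the highest GC content of any 100-base window of their coding sequence (horizontal axis, %). Left, the median log2(value + 1) difference over genes between P21 libraries above and below 50 within chow and within HFD, and between HFD and chow at P0; right, the percentage of genes that were separated and higher, with counts over the bars, reaching 65 of 355 at 85 to 89%.

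The association with the window was also present where overall GC content was low. Among genes with exonic GC below the median of 49.4%, 20 of 391 (5.12%) with a window of at least 80% were separated and higher, against 11 of 5278 (0.208%) with a window under 70%. At or above the median the counts were 81 of 825 (9.82%) and 17 of 3224 (0.527%). Overall exonic GC content showed a different picture in the 2 diets. From the 10% of genes with the lowest exonic GC to the 10% with the highest, the median chow difference went from 0.01 to 0.05, and the median HFD difference from -0.19 to 0.30. The HFD gradient of 0.49 was 0.30 without HFD replicate 3.

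Length separated the genes less than GC content did. Median exonic length was 4083 bases for the 157 genes and 4478 for all, and median coding length was 1539 and 1410 bases. The 157 had fewer exons, with a median of 6 in the longest coding transcript against 9 over all genes, and 34 of 156 (21.8%) had at most 2 exons, against 7.47% of all. Of the 338 genes whose coding transcript is a single exon, 23 (6.80%) were separated and higher, Eid2, H1fx, Tmem158 and Crebzf among them.

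The P0 libraries took no part in choosing the sides, and there Alyref followed the diet: 110.39, 92.61, 86.02, 109.68 and 123.36 in chow replicates 1 to 5 and 24.81, 29.75, 33.47, 22.34 and 9.10 in HFD replicates 1 to 5, with no overlap. Of 14085 genes other than Alyref tested with limma (Benjamini-Hochberg adjusted p under 0.05), 39 were lower in HFD (0.277%) and 1 was higher (0.0071%). Of the 151 separated higher genes that passed the filter at P0, 27 were lower (17.9%) and 0 were higher, and at unadjusted p under 0.05 the counts were 104 lower and 2 higher (5.4% and 3.87% of all genes). Those 27 are 69.2% of the 39. That share varied with the fit, at 16 of 20 lower calls without chow replicate 2 and 47 of 108 without HFD replicate 5. The median log2 change was -1.02 over the 151 and -0.00 over all tested genes, 135 of the 151 had a change below 0 (50.4% of all genes did), and in 59 the HFD libraries lay wholly below the chow libraries, as in 1.7% of all genes.

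The 12 other genes that fell at P0 also lay higher above 50 at P21, although they did not meet both conditions. All 12 had a positive averaged P21 difference, where the median over all genes described was -0.01. Of the 12, 8 lay higher without overlap in either diet, as did 7.39% of all genes described. The other 27 of the 39 were chosen for a P21 difference in this direction. The medians over all 39, 1.17 within chow and 1.34 within HFD, therefore largely restate that choice. Of the 39, 28 (71.8%) had a coding window of at least 80% GC, against 9.23% of the tested genes with a coding sequence. Genes with a window of 85 to 89% had a median P0 change of -0.36 and those at 90% or more of -0.37, while every class under 85% had a median between -0.02 and 0.03. Without HFD replicate 5 the medians of the 2 richest classes were -0.20 and -0.16, and without chow replicate 2 that of the richest was -0.18. Of the 41 separated lower genes, 32 were tested at P0, and limma called 0 of them, with 1 lower and 0 higher at unadjusted p under 0.05.

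Members that fell at P0 spanned several functions. Mtch1, an insertase of the mitochondrial outer membrane, was the most abundant of those named, at 843.16, 832.73, 755.27, 1057.06 and 1084.18 in chow and 264.75, 396.31, 365.93, 276.20 and 120.51 in HFD. Its log2 change was -1.77 (SE 0.26, adjusted p = 0.0119), and at P21 it read 1340.02, 1312.62 and 1329.16 above 50 and 677.68, 420.44, 265.85 and 1023.29 below. The small GTPase gene Rab12 read 158.15, 151.07, 108.60, 137.89 and 174.13 in P0 chow and 57.18, 67.25, 63.27, 57.12 and 26.71 in P0 HFD, a change of -1.46 (SE 0.23, adjusted p = 0.0119). HFD replicate 5, which had the lowest Alyref of all 17 libraries, was the lowest in both genes.

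Grin2d, an NMDA receptor subunit, fell from 27.4 ± 12.7 to 4.41 ± 1.75 (mean ± SD, n = 5 libraries a diet), a log2 change of -2.33 (SE 0.35, limma adjusted p = 0.0119). The adaptor gene Shc2 fell from 63.2 ± 20.7 to 20.2 ± 5.18 (-1.58, SE 0.24, limma adjusted p = 0.0119). Btbd2 fell from 89.6 ± 11.6 to 38.6 ± 8.67 (-1.22, SE 0.18, limma adjusted p = 0.0119). At P21 the averaged differences of these genes in the direction of Alyref were 2.61-fold, 2.62-fold and 2.15-fold. Eid2 (-2.08), Vstm2l (-1.77), H1fx (-2.15), Hcn2 (-2.19), Kcnk12 (-2.24), Lrrc47 (-1.81), Tmem158 (-1.84) and Mogs (-1.43) also fell at P0, with limma adjusted p between 0.0119 and 0.0263. Of these, Eid2, Vstm2l, H1fx, Tmem158 and Mogs missed the threshold in at least 1 fit with a library left out, at limma adjusted p up to 0.0810. Crebzf did not pass with all libraries (-1.19, SE 0.40, limma adjusted p = 0.346).

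**Figure D4:**
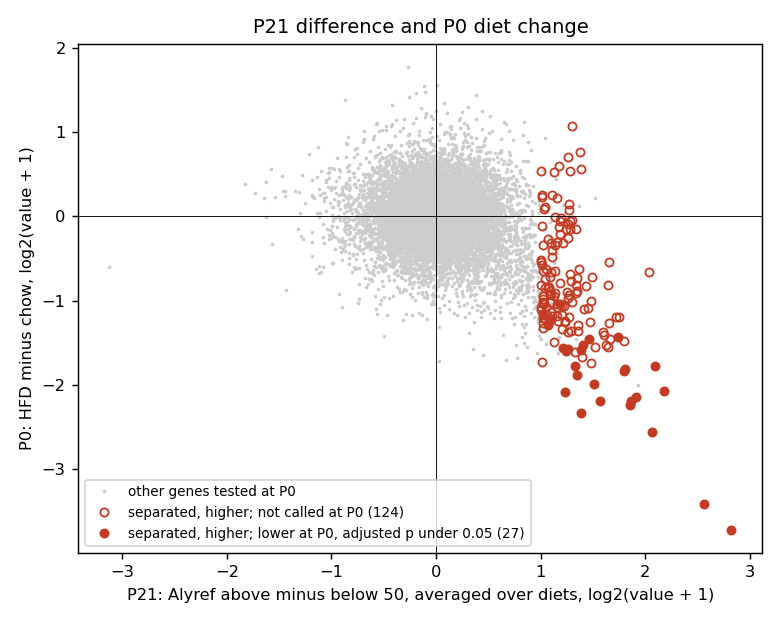
Averaged P21 difference between libraries with Alyref above and below 50 (horizontal axis) and P0 difference between HFD and chow (vertical axis), both on the log2(value + 1) scale, each point a gene tested at both ages. Filled red points are the 27 separated higher genes with limma adjusted p under 0.05 at P0, open red points the other 124, and the median of all 151 is -1.02 on the vertical axis.

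The number of separated genes called at P0 depended on single libraries. Of all genes called lower, they were 12 of 16 without chow replicate 5, 14 of 19 without HFD replicate 1 and 16 of 20 without chow replicate 2. Without HFD replicate 5 they were 47 of 108, so the total rose as well. A core of 12 genes passed in all of the 10 leave-one-out fits: Ano8, Btbd2, Dapk3, Grin2d, Hcn2, Kcnk12, Lrrc47, Mtch1, Nptxr, Pdxp, Rab12 and Shc2. On the whole reads recovered in 3 chow and 2 HFD libraries, edgeR called 2 genes lower, of which 2 were separated higher genes. DESeq2 called 215 genes lower and 79 higher, of which 68 and 1 were separated higher genes.

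In single libraries the level of the 157 genes followed the division by Alyref at P21 and the diet at P0. Their median log2(value + 1) was 4.76 to 4.91 in the P21 libraries above 50 and 2.73 to 3.77 in those below, and at P0 it was 4.46 to 4.96 in chow and 2.84 to 3.95 in HFD. The P21 values describe the genes chosen on them, and the P0 values do not. HFD replicate 1 at P21 and HFD replicate 5 at P0 had the lowest Alyref of their ages (10.14 and 9.10) and the lowest medians (2.73 and 2.84). The 41 lower genes had medians of 1.14 to 1.16 above 50 and 2.10 to 2.53 below, and at P0 of 1.64 to 2.25 in chow and 1.68 to 2.26 in HFD, where the diets overlapped.

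**Figure D5:**
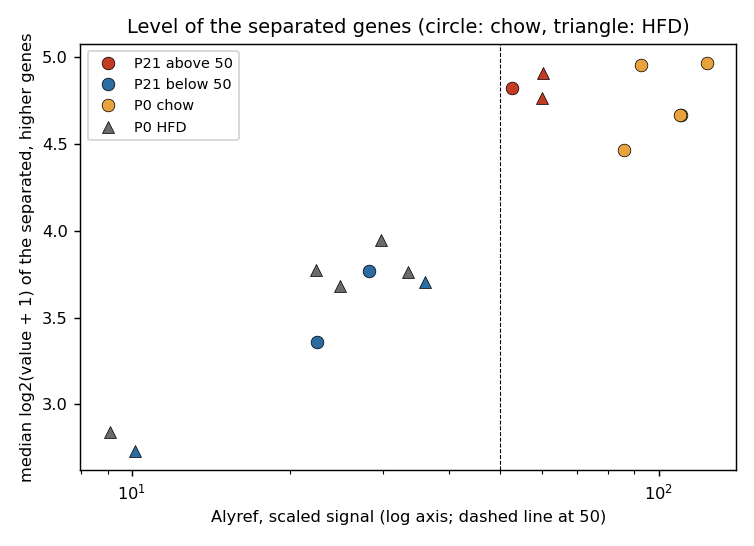
Alyref signal (log axis) and median log2(value + 1) of the 157 separated higher genes in each of the 17 libraries; circles are chow, triangles HFD, and the dashed line marks 50. P21 libraries above 50 and P0 chow libraries lie between 4.46 and 4.96, and the other 9 lie between 2.73 and 3.95; the P21 points show the values on which the genes were chosen.

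At P21 the sides cut across the diets, and the separated genes were chosen for a wide spread within diets in these same libraries. That spread enters the error of the diet test, so a count of 0 among them was largely set by the choice. The limma test of HFD against chow at P21 called 14 genes higher (0.0995%) and 11 lower (0.0782%). Of the 157 separated higher genes it called 0, with 3 lower and 0 higher at unadjusted p under 0.05 (9.17% and 7.84% of all genes), and of the 41 lower genes it also called 0, with 3 lower and 3 higher at unadjusted p. The fit with a robust prior also called 0 of the 157. With 1 library left out, 3 to 16 genes were called higher and 0 to 37 lower, and lower calls came to 0 when chow replicate 2 or either of HFD replicates 1 and 4 was left out, to 3 without chow replicate 3, to 6 without HFD replicate 3 and to 37 without chow replicate 1. The higher calls were 3, 6 and 7 without HFD replicate 1, chow replicate 2 and HFD replicate 4. The median change over the 157 was 0.04, beside -0.02 over all genes. The difference in diet effect between the ages was tested over all 17 libraries: limma called 2 genes higher and 2 lower at P21 than at P0 (0.0133% each), and 0 of the 157, with 57 of them higher and 2 lower at unadjusted p under 0.05 (6.86% and 8.36% of all genes). The median difference in diet effect was 0.95 over the 157, beside -0.04 over all genes. The spread at P21 on which the 157 were chosen also enters this test. A difference was thus not shown for any single gene, and the 0 calls do not show that the diet effect was alike at both ages.

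With the Alyref side as a term in the P21 model, the number of genes called for diet rose from 25 to 58, of which 34 were higher in HFD (0.242%) and 24 lower (0.171%). All 25 calls of the simpler model were kept and 33 were added. The term was built from a gene measured in these libraries and leaves 4 residual degrees of freedom, and the separated genes were chosen on that division, so no count of them is given for this model. In the model without the term Fos had a log2 difference of 1.95 (SE 0.39, limma adjusted p = 0.0676). Without chow replicate 3, which had the most Fos of the chow libraries (39.02), that difference was 2.47 (limma adjusted p = 0.0147). With any other single library left out it was 1.49 to 2.15, at limma adjusted p of 0.0964 to 0.207.

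Over all genes 1.12% were separated and higher and 0.291% separated and lower, so a count of 0 or 1 in the gene lists that follow is near the general share and is no result about a list. Of 21 other mRNA export genes (THO subunits, helicases, cap-binding proteins, export receptors and nuclear pore genes), 0 were separated in either direction, 7 had an averaged difference above 0 and 14 below, and their median was -0.01. Thoc1, a THO subunit, had the largest of these (0.48), at 29.97, 21.45 and 23.72 above 50 and 22.89, 10.02, 18.94 and 26.15 below, with overlapping sides. Of its exonic bases 24.3% are shared with another gene. Rbm15b, an RNA-binding protein gene outside that list and named after its values were seen, was separated and higher (1.64).

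Among genes of POMC neurons and their neighbours single members were separated. Of 23 genes of POMC identity and peptide processing only Nkx2-1 was separated, and it was higher above 50. Of the 23, 17 had an averaged difference above 0, with list medians of 0.32 in chow and -0.03 in HFD. Nkx2-1, a homeobox factor of ventral hypothalamic development, read 74.05, 62.10 and 75.38 above 50 and 48.40, 24.72, 22.63 and 25.57 below, with an averaged difference of 1.27. At P0 it read 24.23 to 68.17 in chow (median 43.93) and 26.05 to 60.13 in HFD (median 50.04), so the diets overlapped. Pomc had differences of -0.55 in chow and -0.03 in HFD, with overlapping sides in both diets, and Cartpt of 0.71 and -0.31, in opposite directions. Without chow replicate 3 the chow differences were 0.27 for Pomc and 0.33 for Cartpt. Agrp and Npy, the peptides of the opposing appetite neurons, had differences of 2.05 and 1.73 in chow and of -0.24 and -0.21 in HFD. The size in chow came from replicate 3, at 13.97 for Agrp and 51.93 for Npy against 132.50 and 436.81 in replicate 2, and without replicate 3 the chow differences were 0.47 and 0.21. Of the exonic bases of Agrp 11.3% are shared with another gene. The leptin receptor gene Lepr read 7.47, 12.79 and 8.02 above 50 and 3.69, 4.14, 8.66 and 7.97 below, with overlapping sides in HFD. Of 24 genes of other hypothalamic neurons 1 was separated, the estrogen receptor gene Esr1, at 23.77, 35.69 and 36.09 above and 15.95, 7.03, 21.29 and 10.82 below.

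Channel, receptor and synapse genes contributed single members. Kcnk12 was the 1 separated gene of 41 potassium channel genes, and Hcn2 was separated among the sodium, calcium and HCN channel genes. Of 36 glutamate receptor and scaffold genes Grin2d was higher and Grm3 lower, of 22 GABA and glycine receptor genes Gabrd was lower, and of 44 presynaptic genes Nptxr and Rims4 were higher. The medians of these lists lay between -0.13 and 0.06. H1fx was the 1 separated gene of 15 histone genes, and of 19 immediate early genes Jund was higher and Fos lower. Jund, an AP-1 subunit encoded by a single exon, read 271.86, 298.54 and 342.12 above and 252.74, 205.47, 33.78 and 125.02 below; 52.6% of its exonic bases are shared with another gene.

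Housekeeping lists shifted as a whole in HFD and not in the same way in chow. Of 78 cytosolic ribosomal protein genes 0 were separated, and their median difference was 0.17 in chow and -0.47 in HFD. Of 74 nuclear genes of oxidative phosphorylation 0 were separated; all 74 had an averaged difference below 0, with medians of 0.03 in chow and -0.38 in HFD. The summed signal of the latter was 27118 and 25127 in HFD replicates 2 and 4, and 30347 and 35442 in HFD replicates 1 and 3. The same HFD libraries below 50 were the lowest of the 7 for the difference between the 10% of genes richest in exonic GC and the 10% poorest (-0.29 and -0.51, against 0.04 to 0.13 in the other 5), and the part of that in the shift of these lists was not tested. Of 24 genes of the unfolded protein response 0 were separated.

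Oligodendrocyte, astrocyte and microglial genes leaned to the libraries below 50 without being separated, while fibroblast and meningeal genes leaned the other way. Of 19 oligodendrocyte lineage genes 0 were separated and 18 had a difference below 0, with medians of -0.96 in chow and -0.15 in HFD. In chow this followed the summed signal of 8715 in replicate 1 against 12834 and 19492 in replicates 2 and 3. Astrocyte genes (0 of 18 separated, 15 below 0, median -0.31) and microglial genes (0 of 16, 15 below 0, median -0.33) leaned the same way. Of 19 endothelial and mural genes Pdgfrb was separated and higher and Tie1 separated and lower, with 15 of the 19 below 0, and of 13 fibroblast and meningeal genes 12 were above 0 (median 0.39) with 0 separated. The part of these markers in the differences of the 157 genes was not tested.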

How the data were processed

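Ribosome-bound RNA was made into NexteraXT libraries and sequenced as 50-base single reads, per the labels' protocols. FastQC, TopHat2 2.0.13, Picard 1.80, HTSeq 0.6.1, edgeR and the build mm10 are named in the submitters' processing notes, with no settings, and the strand handling is not given in the sources used here. A table of 15355 genes deposited by the authors holds a signal for each library, which by its column sums is CPM-like and is rounded to 2 decimals. The steps between low values gave the depth of every library, and between 99.7% and 100.0% of values came out as whole reads within the rounding. Reads were recovered firmly enough for a count test in 6 libraries only, so the test foreseen for counts was replaced by limma on log2(value + 1). A further 15 columns are empty.

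Values were used as deposited, with pseudocount 1. The 7 P21 libraries were split by Alyref and described without a test. HFD against chow was tested at P0 (10 libraries) and at P21 (7) with limma 3.58.1 (R 4.3.3, trend, two-sided, Benjamini-Hochberg adjusted p under 0.05), for genes above 1 unit in a number of libraries no lower than the size of the smaller diet group; edgeR 4.0.16 and DESeq2 1.42.0 were run on the recovered reads of 5 P0 libraries. Of the symbols, 15213 (99.1%) matched GENCODE M21, 809 of them through older symbols. Sequences, exons and coordinates come from that annotation. The labels do not say whether libraries came from separate animals, so p-values measure the spread between these libraries. The scripts were tested on simulated data.

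The members and the gene lists were chosen with earlier results of these data known. Genes named were Alyref, Pomc, Cartpt, Agrp, Npy and Lepr; up to 12 separated genes in each direction with the largest averaged difference and a mean above 5 over the P21 libraries (gene models ending in Rik or starting with Gm not named); up to 3 genes with the largest difference in each of 22 lists; and the 10 separated genes with the smallest p at P0. Some genes that this rule names are not reported here. The lists of erythroid cells (2 genes described), anterior pituitary (2) and choroid plexus and ependyma (11) had 0 separated genes, and 0 of 15 mitochondrially encoded genes were in the table. Alternatives covered the pseudocount, the filter, rescaling, a GC correction, a replicate block, a robust prior and leaving out each library.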

Additional observations from a re-analysis of the deposited data

Results flagged for a closer look

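Among the 32 genes followed by library, 12 values stood apart from the rest of their group of 4 or 5 libraries, by a gap larger than Dixon's 95% limit for the share of the group's range. Chance alone gives about 1 such value in 20 groups, and 3 groups were examined for each gene. HFD replicate 5 at P0, the library with the lowest Alyref (9.10), held 5 of the 12: it was highest for Pomc (1057.28), Agrp (25.57) and Npy (178.70), and lowest for Crebzf (4.15) and Rab12 (26.71). In P0 chow, Cartpt was high in replicate 3 (105.57), Gabrd in replicate 5 (1.28) and Tmem63a in replicate 2 (4.44). In P0 HFD, Ano8 was high in replicate 3 (4.35) and Grm3 low in replicate 2 (37.93). At P21, Lepr was high in HFD replicate 2 (12.79), above the threshold of 50 for Alyref, and Grm3 was high in HFD replicate 3 (15.81), below it.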

How the results depend on the processing

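For the P21 libraries divided by Alyref, the 157 higher and 41 lower genes became 235 and 115 with pseudocount 0.1, 59 and 1 with pseudocount 5 (all 59 among the 157), 128 and 10 with values above 5 required, 114 and 42 after a GC correction, and 588 and 297 with a difference of at least 0.5, a limit chosen after seeing the data; the share of higher genes with a window of at least 80% GC was then 39.6%. The GC correction took the difference between the 10% of genes highest and lowest in exonic GC to -0.013 in chow and -0.041 in HFD, as it is built to do, while the difference between windows of at least 85% and under 70% GC stayed at 0.26 in chow and 0.48 in HFD, from 0.29 and 0.64. With 1 library left out, the higher count was 146 to 559, the lower count 30 to 142, the number of the 157 still separated 99 to 143, the window share 38.9 to 59.9%, and the GC gradient 0.00041 to 0.063 in chow and 0.30 to 0.62 in HFD.

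At P0, 39 genes were lower and 1 higher, with 27 of the separated higher genes among the lower. The higher count was 2 after the GC correction, with values above 5 required and after rescaling, and 3 with pseudocount 5. In the 5 libraries with recovered reads, a choice made after seeing the data, limma called 23 lower and 0 higher, edgeR 2 and 0, and DESeq2 215 and 79; of the separated higher genes, edgeR called 2 lower and DESeq2 68 lower and 1 higher, and the cause of this spread was not tested. The 2 were Ano8 and Dapk3, and edgeR adjusted p was 0.0630 to 0.235 for the other named genes that had passed in limma. With 1 library left out, 16 to 108 genes were lower, 1 to 26 higher and 12 to 47 of the separated genes lower.

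Same-numbered libraries did not all deviate together from their group means. Their deviations correlated at 0.19, 0.29, -0.05, -0.18 and 0.51 at P0 and at -0.04, -0.05 and 0.11 at P21. Differently numbered pairs ran from -0.50 to 0.40 at P0. These values do not settle whether the numbers mark pairs. With the replicate block, P0 gave 87 lower and 16 higher calls, 49 of the separated genes lower, and 96, 17 and 50 with the block and the GC correction; P21 gave 22 lower calls on replicates 1 to 3.

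At P21, the 14 higher and 11 lower calls became 34 and 24 with the Alyref side as a term and 24 and 18 with a robust prior, and the lower count was 17 with values above 5 required and with pseudocount 5, and 6 with no filter; with 1 library left out it was 0 to 37, and the higher count 3 to 16. Apart from the fit with the Alyref side as a term, for which no count of them is given, these fits at P21 called 0 of the 157. The choice of the 157 by their spread within diets in these libraries made that likely.

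With 1 library against 2 in chow, the difference there has no replicate on the side above 50. Near 0.1 units a value rests on about 3 reads, so the weakly expressed lower genes are the least certain.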
